A study of Danio rerio with 39 samples.

Results

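Zebrafish larvae exposed to the dioxin TCDD were followed over one late interval, from day 4 to day 5 after fertilization. The 8 arrays labelled TCDD day 4 and TCDD day 5, with 4 replicates on each day, were chosen from the 39 arrays of the time course by their labels, and day 5 was compared with day 4. AB* embryos had been exposed to 1 ng/mL waterborne TCDD, or to the vehicle dimethyl sulfoxide, for 1 h at 4 to 5 h after fertilization. Pools of whole larvae were then taken on each of days 1 to 5, so the exposed larvae of both days shared one early treatment and differed in the time since it. The 8 arrays of the vehicle control on the same days had no TCDD and gave the same interval of normal development. The title of the series speaks of an exposure over several days, whereas the treatment protocol gives the single short exposure used here. Replicates 1 to 4 were separate experiments, and each array held RNA of larvae, labelled with Cy5, beside a common reference, labelled with Cy3. The reference was RNA of Zf4 cells, a line of zebrafish embryonic fibroblasts. A level is therefore the log2 ratio of larval to reference signal for 1 probe, and a change is the difference of such levels between day 5 and day 4. In pools of whole larvae, fewer cells of a type and less RNA per cell cannot be told apart.

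As background, TCDD binds the aryl hydrocarbon receptor, which in zebrafish acts mainly through Ahr2 and switches on detoxifying genes such as cyp1a. Early exposed zebrafish develop a malformed heart, poor circulation, oedema and a short jaw, and these signs worsen through the late larval stages. In untreated larvae, the same days bring the end of yolk feeding. The pancreas, liver and intestine take up digestive work, the retina and lens mature, and proliferation recedes from much of the body.

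Between 16994 and 18032 of the 21495 probes were well above background in the larval channel on the 8 TCDD arrays, and 31 to 73 were saturated. The median log2 ratio of these arrays lay between -0.19 and -0.15. The ratios had been corrected for dye within each array, so these medians cannot show whether an array was shifted as a whole. The third experiment stood apart. Its change from day 4 to day 5 had the widest spread over probes (SD 0.86, against 0.50 to 0.65 in the other TCDD pairs), and it correlated across probes with the other TCDD pairs at r between 0.02 and 0.09, a description in which probes are not independent. The r of experiment 4 was also low, at 0.09 to 0.12, and only experiments 1 and 2 reached 0.31 with each other. The TCDD day 5 array of experiment 3 was scanned in another batch than its day 4 partner and had the lowest quality weight of the 8 arrays (0.23). The vehicle control pair of the same experiment was also the widest of the control pairs (SD 0.77). Results that rest on this array are given with and without it. Of the scan batches, one held both days of experiments 1 and 2 under TCDD. It also held the TCDD day 4 array and both control arrays of experiment 3, which entered its fit. Below it is named the scan batch of experiments 1 and 2. Within it 884 probes were called under TCDD and 786 in the control. Another batch held 1 complete pair per treatment and allowed no test.

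The label of exposure was borne out by cyp1a, the monooxygenase gene induced by TCDD. On day 4 its log2 level was 9.0, 8.83, 9.6 and 9.76 in the TCDD larvae of experiments 1 to 4, and 3.42, 2.81, 2.65 and 3.09 in the vehicle control. On day 5 it was 9.72, 9.22, 10.24 and 9.48 under TCDD and 3.76, 3.87, 4.16 and 4.02 in the control. Every TCDD array lay above every control array on both days. Within the exposed larvae the days overlapped: the change was 0.37 (SE 0.42, adjusted p = 0.73; limma with Benjamini-Hochberg adjustment over all probes), with 1 of the 4 day 5 spots saturated. The control change was 0.96 (SE 0.42, adjusted p = 0.23), also not called. Of the 10 genes listed for the receptor pathway, 1 rose and 1 fell under TCDD, where 5.51% of all named genes rose and 7.16% fell. The forkhead factor gene foxq1b rose by 0.60 and the glutathione transferase gene gstp1.2 fell by 0.56. In the control they rose by 0.71 and fell by 0.68. Further probes of gstp1.2 gave -0.60 (called) and -0.004 (not called) under TCDD.

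From day 4 to day 5, 731 probes rose and 978 fell in the exposed larvae at an adjusted p below 0.05, of 21493 tested (3.40% and 4.55%). In the vehicle control 571 rose and 905 fell (2.66% and 4.21%). Taking the brightest probe of each of 7040 named genes, 388 rose and 504 fell under TCDD (5.51% and 7.16%), and 274 rose and 517 fell in the control (3.89% and 7.34%). The rises were the larger changes: the median called change was +0.51 for rises and -0.37 for falls, and 74 rises but 3 falls passed 2-fold. The split between rises and falls depended on the processing, with 1112 probes rising and 712 falling under TCDD after normexp background correction and loess, and 703 and 520 from the larval channel alone. The median over all named genes was -0.02 in both treatments. Of the 388 genes that rose under TCDD, 164 were also called as rising in the control, which is 42.3% of them and 59.9% of the 274 control rises. Of the 504 that fell, 289 also fell in the control (57.3%, and 55.9% of the 517). No gene was called in opposite directions.

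The change itself differed between the treatments for 2 probes at an adjusted p below 0.05, both higher under TCDD (0.00931% of 21493 tested). One measured f5 and the other zgc:76926, and both are described below. At an unadjusted p below 0.01 the change differed for 281 probes (1.31%), of which 191 were higher under TCDD. For named genes, 98 were higher under TCDD and 28 lower at that threshold (1.39% and 0.398%). A gene called in one treatment only is therefore not shown to differ. Where both changes of a gene are given without the contrast, that contrast did not pass the adjusted threshold. The 2 probes were no longer called when the TCDD day 5 array of experiment 3 was left out (0 probes by limma, with 1406 at an unadjusted p below 0.05).

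**Figure D1:**
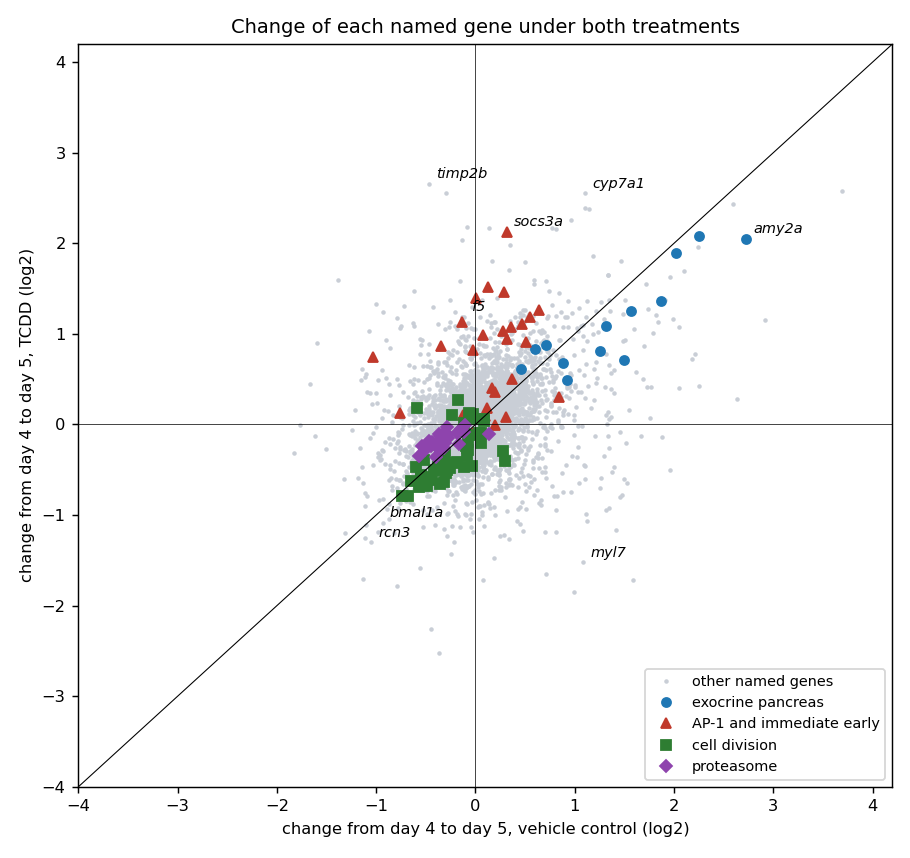
Change of each named gene (1 probe per gene) from day 4 to day 5 in the vehicle control (horizontal axis, log2) and under TCDD (vertical axis, log2), with the line of equal change. Genes of 4 lists are coloured: 11 of 14 exocrine pancreas genes lie below the line, and 22 of 27 AP-1 genes lie above it.

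Digestive enzyme genes of the exocrine pancreas rose in both treatments. Of 14 genes, 7 rose under TCDD and 0 fell, with a median change of 0.85, against 5.51% of all named genes that rose. In the control 9 rose, with a median of 1.28. The list medians of the 4 experiments were 0.89, 1.16, 1.39 and 0.64 under TCDD and 1.07, 1.55, 1.49 and 1.07 in the control. Every value was above 0, and the exposed value was the lower in each of the 4 experiments. The change was lower under TCDD for 11 of the 14 genes, a tally that was not tested. Under TCDD the list median was 1.08 with normexp and loess and 1.38 from the larval channel alone, with 12 and 11 rises. The comparison of the list with the control was made in the main processing only. Within the scan batch of experiments 1 and 2, 7 rose under TCDD. Chymotrypsinogen ctrb.1 stood at 0.90, 0.86, 0.95 and 1.29 on day 4 and at 2.45, 2.64, 2.3 and 2.06 on day 5 in the exposed larvae, with no overlap. It rose 2.57-fold, by 1.36 (SE 0.16, adjusted p = 2.9e-06). Its other probes gave 0.60 and 0.23, neither called. In the control ctrb.1 went from 1.43, 0.76, 0.86 and 1.3 to 3.43, 2.7, 2.36 and 3.33, a rise of 1.87 (difference of the changes -0.51, SE 0.22, unadjusted p = 0.031, adjusted p = 0.82). The pancreatic amylase amy2a rose by 2.05 (SE 0.27, adjusted p = 1.3e-05) and by 2.73 in the control. The elastase cela1.5 rose by 2.08 and 2.25, and cela1.3 by 1.25 and 1.57. Trypsinogen prss1 did not pass the test under TCDD, at 0.61 (SE 0.22, adjusted p = 0.098). No gene of the list differed in its change between the treatments, at an adjusted p below 0.05 or an unadjusted p below 0.01.

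Intestinal genes were called in the same direction. Of 17, 4 rose under TCDD and 0 fell (5.51% of all named genes rose), against 5 and 0 in the control (3.89%). They were fabp6, the bile acid binding protein of the distal gut (+1.65, SE 0.30, adjusted p = 5.0e-04), the acidic chitinases chia.1 (+1.55) and chia.2 (+1.06), and the oligopeptide transporter slc15a1b (+1.2). All 4 rose in the control as well, by 1.33, 1.72, 1.6 and 1.82. A further probe of chia.1 gave 0.45 under TCDD and was not called.

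In the liver and plasma list, 7 of 46 genes rose under TCDD and 0 fell, with a median of 0.33, against 5.51% of all named genes that rose. In the control 1 rose (3.89% of all named genes), with a median of 0.07. The TCDD count was 16 with normexp background correction and loess normalization (median 0.29), 11 from the larval channel alone, 3 with arrays scaled to equal spread (median 0.014), 4 without experiment 2 and 3 without experiment 3. The list median of the exposed pair exceeded that of the control pair in 4 of 4 experiments. The gene f5 encodes coagulation factor V. Its level in exposed larvae was 1.58, 1.67, 1.31 and 1.91 on day 4 and 3.45, 2.39, 2.53 and 2.86 on day 5. In the control it was 1.69, 1.85, 1.05 and 1.43 and then 1.33, 1.53, 1.11 and 1.57. The 4 exposed samples of day 5 lay above all 12 other samples of these days. It rose 2.28-fold, by 1.19 (SE 0.16, adjusted p = 1.3e-05), the control change was -0.12, and the changes differed by 1.3 (SE 0.22, adjusted p = 0.032). Without the TCDD day 5 array of experiment 3 the difference was 1.29 (adjusted p = 0.091). A further probe of f5 gave a difference of 1.42, with an adjusted p of 0.36. The complement factor gene cfb rose by 2.04 (SE 0.54, adjusted p = 0.017), with a control change of -0.14 (difference of the changes 2.17, SE 0.77, unadjusted p = 0.0086, adjusted p = 0.73). Experiment 3 alone gave a change of 4.76, and without its TCDD day 5 array the change was 1.18 (adjusted p = 0.099). The gene apoeb, for an apolipoprotein, rose by 0.78, with a control change of 0.19. Its further probes gave 0.25 to 0.92 under TCDD, some of them not called, and 0.05 to 0.81 in the control. The gene igfbp1a, for a secreted binding protein of insulin-like growth factors, rose by 1.6, with a control change of 0.59. By contrast itih3b.1, an inter-alpha-trypsin inhibitor heavy chain, rose in both treatments, by 2.57 and 3.69, and its call under TCDD was lost without experiment 2 or 3 (adjusted p 0.081 to 0.18). Outside the list, cyp7a1, the rate-limiting enzyme of bile acid synthesis, was among the largest rises at 2.56 (SE 0.33, adjusted p = 9.3e-06), and the control change was 1.1 (SE 0.33, adjusted p = 0.036). The liver fatty acid binding protein fabp10a, a defining liver gene, was at 0.46 under TCDD (SE 0.31, adjusted p = 0.48) and 0.67 in the control.

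Genes of AP-1 subunits, which pair as transcription factors, and other genes that respond within minutes to stress, cytokines and growth factors rose in the exposed larvae. Of 27 genes, 15 rose under TCDD and 0 fell, with a median change of 0.86, against 5.51% of all named genes that rose. The median was 0.44 with normexp and loess and 0.63 from the larval channel alone, with 17 and 14 rises. In the control 2 rose, with a median of 0.19. The list medians in experiments 1 to 4 were 0.51, 0.80, 0.65 and 0.98 under TCDD and 0.06, 0.29, 0.24 and 0.00 in the control, so the TCDD value was the higher in each experiment. The changes differed at an unadjusted p below 0.01, with the higher change under TCDD, for 8 of the 27 (1.39% of all named genes), and none passed the adjusted threshold. Without the TCDD day 5 array of experiment 3, 15 again rose. Within the scan batch that held experiments 1 and 2, 9 rose.

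Among the subunits, junbb stood at -2.31, -2.97, -2.29 and -1.91 on day 4 in exposed larvae and at -1.33, -1.68, -1.63 and -0.87 on day 5. In the control it went from -3.01, -2.96, -2.94 and -2.69 to -2.97, -2.67, -2.7 and -2.95. The exposed samples of day 5 were above all others, and experiments 1 to 4 each rose. The rise was 0.99 (SE 0.15, adjusted p = 8.7e-05), against 0.08 in the control (difference of the changes 0.91, SE 0.22, unadjusted p = 2.2e-04, adjusted p = 0.36). Its paralog junba rose by 1.52 (SE 0.26, adjusted p = 4.0e-04), with the day 4 spot of experiment 3 left out as an outlier, and fosab, the fos subunit, rose by 1.46 (SE 0.34, adjusted p = 0.0061). The changes in the control were 0.12 and 0.28. Dimmer probes gave 0.84 (called) and 0.30 (not called) for junba under TCDD, and 0.51 (not called) for fosab. The subunit jun rose by 0.40 and fosb gave 0.75 (SE 0.54, adjusted p = 0.51), which was not called. Among the cytokine feedback genes, socs3a was at -1.68, -2.89, -1.91 and -0.88 on day 4 and 0.54, -0.45, -0.08 and 1.15 on day 5 under TCDD, and at -2.87, -2.76, -3.29 and -2.84 on day 4 and -3.4, -1.38, -2.76 and -2.94 on day 5 in the control. The exposed days did not overlap and the control days did. It rose 4.38-fold, by 2.13 (SE 0.35, adjusted p = 1.8e-04; difference of the changes 1.81, SE 0.49, unadjusted p = 9.3e-04, adjusted p = 0.51), and socs3b rose by 1.4 with a control change of 0.01.

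The CCAAT enhancer binding factors cebpb and cebpd rose by 1.14 and 1.27. In the control cebpd also rose, by 0.64, and cebpb gave -0.13 (SE 0.22, adjusted p = 0.88). Phosphatases that switch off mitogen-activated kinases followed, with dusp1 rising by 0.94, dusp5 by 1.19, dusp2 by 0.50 and dusp6 by 0.36. The growth arrest genes gadd45ba and gadd45bb rose by 1.11 and 1.08, and btg2 by 0.82. Members that did not pass the test included the stress-induced factor atf3, at 0.86 (SE 0.30, adjusted p = 0.083). The call of jun was lost without experiment 1, 3 or 4 (adjusted p 0.12 to 0.33), that of dusp2 without experiment 1, 2 or 4 (0.13 to 0.23), and that of fosab without experiment 2 (0.090).

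**Figure D2:**
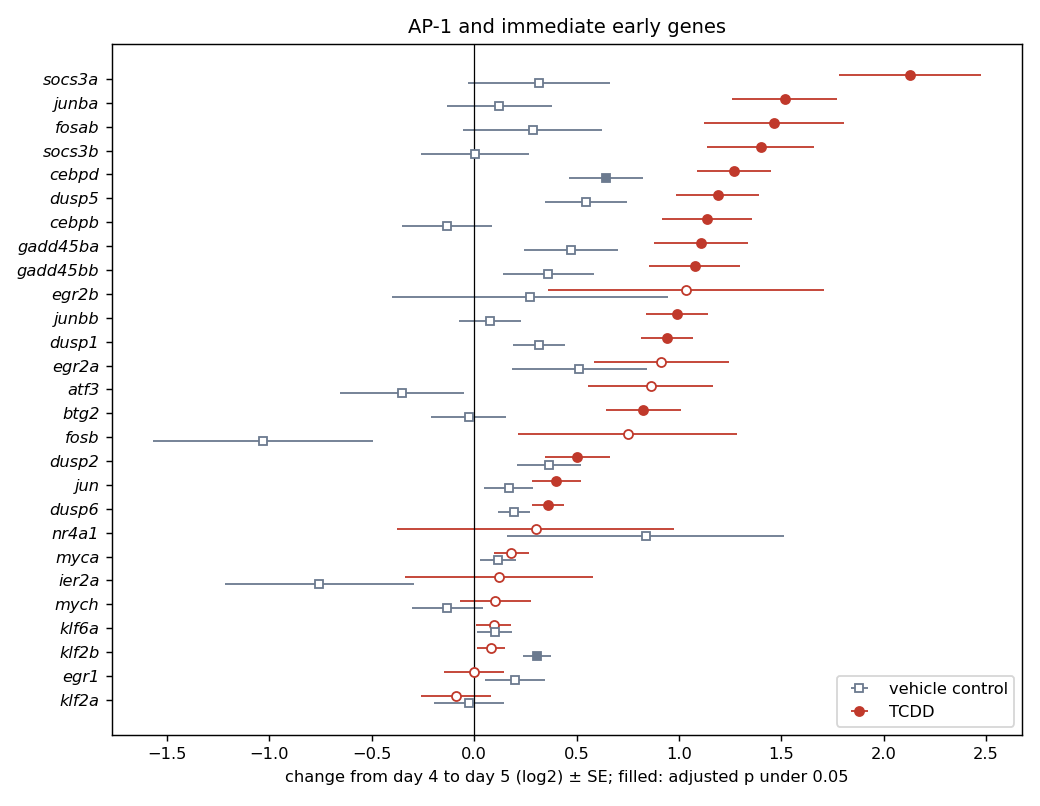
Change from day 4 to day 5 (horizontal axis, log2, with SE from the fit) of the 27 AP-1 and immediate early genes under TCDD (circles) and in the vehicle control (squares). Filled symbols passed an adjusted p of 0.05: 15 genes under TCDD and 2 in the control, cebpd and klf2b.

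Some genes of leukocytes and inflammation rose in the exposed larvae. Of 35, 7 rose under TCDD and 0 fell, with a median of 0.48, against 5.51% of all named genes that rose. With normexp and loess 14 rose and 1 fell, at a median of 0.28, while 4 rose without experiment 3 and 2 within the scan batch of experiments 1 and 2. In the control 1 rose and 1 fell, with a median of 0.15, and 5 of the 35 had a higher change under TCDD at an unadjusted p below 0.01. The gelatinase gene mmp9, expressed in leukocytes and injured epithelium, was at -0.54, -1.98, -1.26 and -0.19 on day 4 and 2.94, -0.38, 1.04 and 2.65 on day 5 in exposed larvae. In the control it was at -2.06, -2.08, -2.2 and -2.45 on day 4 and -2.58, -2.97, -1.84 and -2.59 on day 5. It rose in each of the 4 experiments, although experiment-to-experiment levels were wide enough for the exposed days to overlap. The rise was 2.55 (SE 0.54, adjusted p = 0.0027; difference of the changes 2.85, SE 0.77, unadjusted p = 9.0e-04, adjusted p = 0.51). Within the scan batch of experiments 1 and 2 the change was 2.4 (adjusted p = 0.091). The collagenase mmp13a rose by 2.17 (SE 0.39, adjusted p = 5.5e-04) and differed from the control change of 0.14 only before adjustment (unadjusted p = 0.0011, adjusted p = 0.52), with 2.05 (adjusted p = 0.051) within that batch. L-plastin, lcp1, an actin bundling protein of leukocytes, rose by 1.12, with a control change of 0.16. The NADPH oxidase subunit cyba rose by 0.74, and the inhibitors of NF-kappaB nfkbiaa and nfkbiab by 0.86 and 0.55. A dimmer probe of cyba gave 0.46 and was not called. The neutrophil and macrophage enzymes mpx and lyz were not called, at 0.07 (SE 0.60, adjusted p = 0.98) and 0.06 (SE 0.33, adjusted p = 0.96). With normexp background correction and loess lyz was called, at 0.86 (adjusted p = 0.0071). A further, dimmer probe of lyz gave 1.51 in the main fit (SE 0.98, adjusted p = 0.45) and was not called. The spots of mpx were well above background on all 8 TCDD arrays and on 0 of the 8 control arrays of these days.

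Under TCDD timp2b, a tissue inhibitor of metalloproteinases, had the largest rise among the named genes. Its levels were 0.10, -1.45, 0.01 and 0.82 on day 4 and 3.06, 0.12, 2.98 and 3.94 on day 5 under TCDD. In the control they were 0.07, -0.94, -0.68 and -0.83 on day 4 and -0.93, -1.28, -0.78 and -1.27 on day 5. It rose in 4 of 4 exposed pairs and was lower on day 5 in 4 of 4 control pairs. The changes were 2.66 (SE 0.41, adjusted p = 1.1e-04) and -0.47 (SE 0.41, adjusted p = 0.70), and the difference of 3.12 (SE 0.59) had an adjusted p of 0.084. Fibronectin fn1b rose by 1.21 (SE 0.29, adjusted p = 0.0088), with a control change of 0.15. Its other, dimmer probe gave 0.50 and was not called. Granulin grna.2, a secreted growth factor, rose by 2.39 (SE 0.30, adjusted p = 9.0e-06), and the control change was 1.11 (SE 0.30, adjusted p = 0.020).

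Levels over the earlier days were as follows. In exposed larvae the mean log2 level of socs3a was -3.61 ± 0.44 (SD, n = 4) on day 3, -1.84 ± 0.83 on day 4 and 0.29 ± 0.71 on day 5, and in the control it was -4.15 ± 0.20, -2.94 ± 0.24 and -2.62 ± 0.87. For junbb the exposed means were -2.85 ± 0.29, -2.37 ± 0.44 and -1.38 ± 0.37, and the control means -3.29 ± 0.11, -2.90 ± 0.14 and -2.82 ± 0.16. For f5 the day 4 means were 1.62 ± 0.25 under TCDD and 1.5 ± 0.35 in the control, and the samples of both treatments overlapped. On day 5 they were 2.81 ± 0.47 and 1.39 ± 0.21, without overlap. On day 3 mmp9 was high in 1 exposed sample, at 2.1, while the lowest was -1.69.

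**Figure D3:**
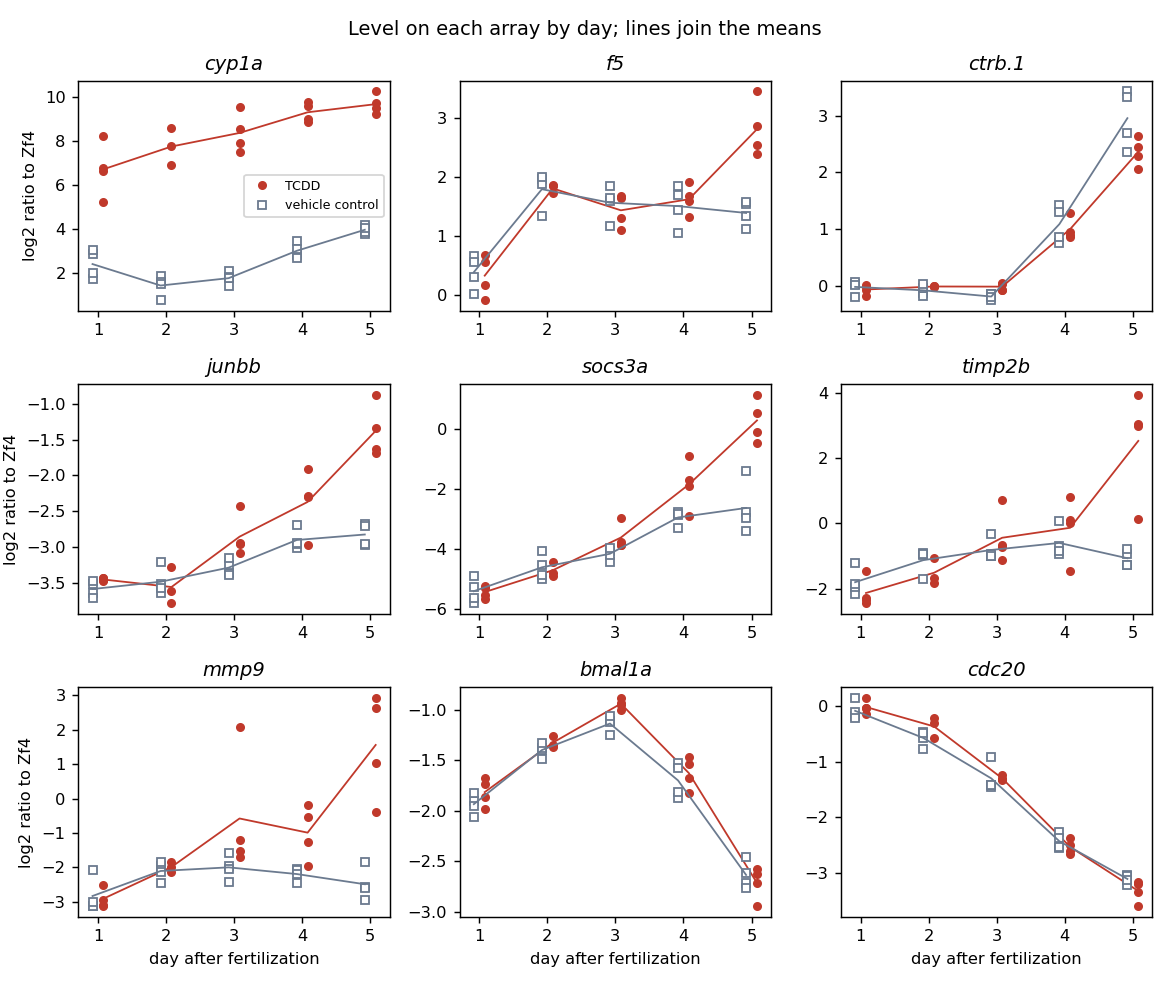
Level on each array (vertical axis, log2 ratio to the Zf4 reference) against day after fertilization for 9 genes, under TCDD (filled circles) and in the vehicle control (open squares), with lines through the daily means. TCDD day 2 has 3 arrays and the other groups have 4. On day 5 the 4 exposed samples of f5, junbb, socs3a, timp2b and mmp9 lie above all 4 control samples, whereas those of bmal1a overlap.

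Genes of mitosis fell in both treatments. Of 53 genes of cell division, 24 fell under TCDD and 0 rose, with a median of -0.40, against 7.16% of all named genes that fell. With normexp and loess 19 fell, at a median of -0.16. In the control 18 fell, with a median of -0.29, and all 18 were among the 24. The 4 experiments gave list medians of -0.43, -0.42, -0.32 and -0.31 under TCDD and -0.15, -0.30, -0.36 and -0.27 in the control. Every one was below 0. The anaphase activator cdc20 was at -2.66, -2.38, -2.5 and -2.61 on day 4 and -3.36, -3.16, -3.2 and -3.61 on day 5 in the exposed larvae. The days did not overlap, and in the control the levels were -2.55, -2.27, -2.38 and -2.54 on day 4 and -3.22, -3.04, -3.06 and -3.14 on day 5. It fell by 0.79 (SE 0.09, adjusted p = 1.4e-06) and by 0.68 in the control. Cyclin ccnb1 fell by 0.79 and 0.74, the polo kinase plk1 by 0.62 and 0.65, the mitotic kinase cdk1 by 0.57 and 0.55, and the spindle motor kif11 by 0.56 and 0.55. A dimmer probe of kif11 went the other way under TCDD, at +0.56, and was not called. The gene fam83d, which encodes a spindle protein, fell by 0.84 and 0.70, although a further probe gave -0.06. Scaling the arrays to equal spread gave 11 falls, the larval channel alone 13, and the fit within the scan batch of experiments 1 and 2 gave 15.

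Genes of DNA replication were called in the exposed larvae. Of 36 genes, 14 fell under TCDD and 0 rose, with a median of -0.30, against 7.16% of all named genes that fell. After normexp and loess 8 fell, and with arrays scaled to equal spread 0 fell, each with a median of -0.18. In the control 0 were called by limma, against 7.34% of all named genes that fell, and the median was -0.09. At an unadjusted p below 0.01, 3 fell in the control, against 9.71% of all named genes. The replication clamp pcna fell by 0.44 (SE 0.13, adjusted p = 0.034, and 0.058 to 0.22 when 1 experiment was left out), the thymidylate synthase tyms by 0.51, the dUTPase dut by 0.51 and the replication protein rpa2 by 0.49. Their control changes were -0.17, -0.30, -0.38 and -0.09. Dimmer probes of pcna gave -0.43 (called) and 0.04 (not called) under TCDD. No gene of the list differed between the treatments even at an unadjusted p below 0.01, so the called falls of single genes do not show a difference from the control. As a list, the change was lower under TCDD for 34 of the 36 genes, with a median difference of -0.20. Genes of a list are not independent, and this tally was not tested. The list medians in experiments 1 to 4 were -0.42, -0.20, -0.08 and -0.45 under TCDD. In the control they were -0.10, 0.04, -0.10 and -0.25, so the exposed list fell less than the control in experiment 3. The count of called falls was also unstable. It was 1, 7, 12 and 2 without experiments 1, 2, 3 and 4 in turn, 16 without the TCDD day 5 array of experiment 3, and 1 within the scan batch of experiments 1 and 2.

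**Figure D4:**
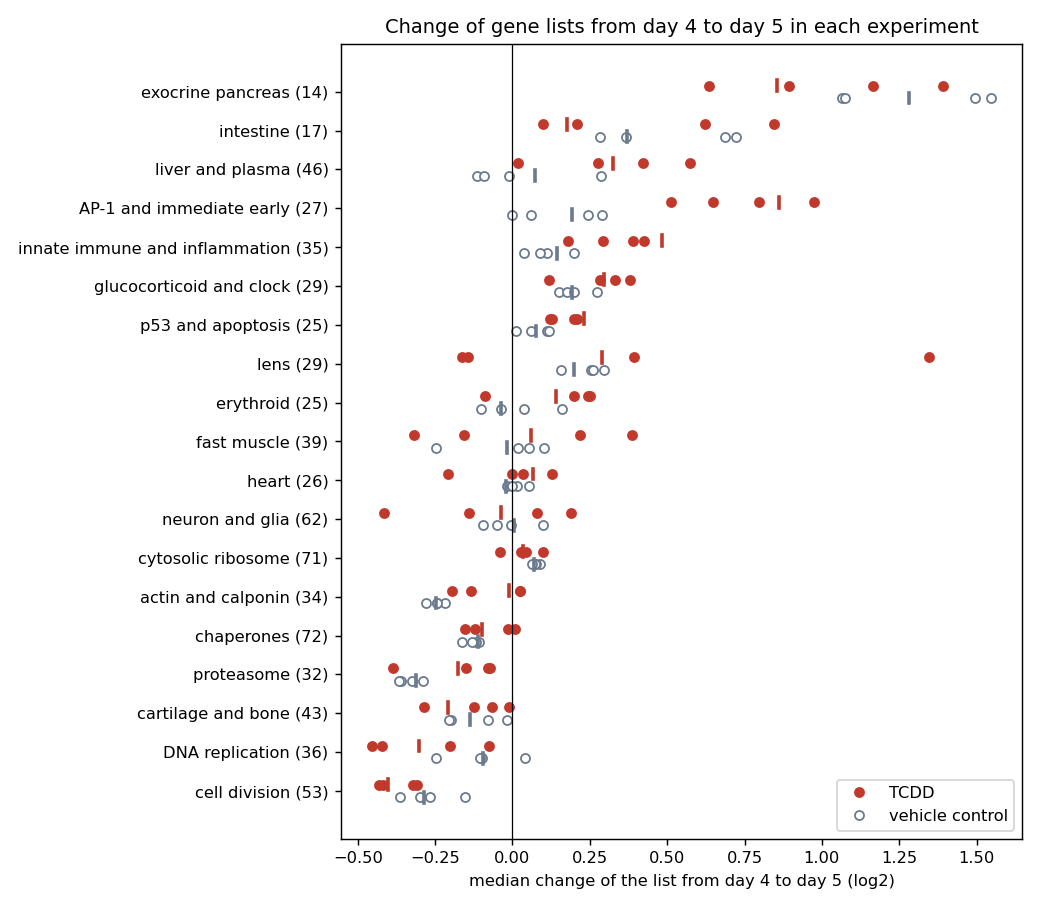
Median change of 19 gene lists from day 4 to day 5 (horizontal axis, log2; number of genes in parentheses) in each of 4 experiments, under TCDD (filled circles) and in the vehicle control (open circles). The short bar is the median of the fitted changes, such as 0.86 and 0.19 for the AP-1 genes and -0.40 and -0.29 for the cell division genes.

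Clock genes were called in both treatments. Of 29 glucocorticoid and clock genes, 7 rose and 4 fell under TCDD, and 5 rose and 4 fell in the control. The shares of all named genes were 5.51% and 7.16% under TCDD, and 3.89% and 7.34% in the control. The activator bmal1a was at -1.83, -1.47, -1.54 and -1.68 on day 4 and -2.95, -2.58, -2.71 and -2.63 on day 5 under TCDD, and at -1.88, -1.53, -1.58 and -1.82 on day 4 and -2.72, -2.61, -2.46 and -2.76 on day 5 in the control. The days were apart in each treatment. It fell by 1.09 (SE 0.08, adjusted p = 6.6e-09) and by 0.94, and bmal1b fell by 0.57 and 0.55. The repressors per1b and cry1b rose, by 0.59 and 0.82 under TCDD and by 0.58 and 0.78 in the control, while cry4 fell by 0.80 and 1.09. The glucocorticoid target sgk1, a kinase of ion transport, rose by 1.09 and 0.45 (difference of the changes 0.65, SE 0.18, unadjusted p = 0.0014, adjusted p = 0.55). The cochaperone gene fkbp5, induced by glucocorticoids in many vertebrates, stood at a change of 0.35 under TCDD (SE 0.27, adjusted p = 0.55) and fell by 1.0 in the control (SE 0.27, adjusted p = 0.019; difference of the changes 1.35, SE 0.38, unadjusted p = 0.0015, adjusted p = 0.55). Under TCDD it was not called.

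The genes rcn3 and fkbp10b were among the 10 largest called falls that had the same sign in all 4 experiments. The endoplasmic reticulum protein rcn3 fell by 1.3 (SE 0.12, adjusted p = 5.1e-08) and by 1.05 in the control, and fkbp10b, a peptidyl-prolyl isomerase that acts on procollagen, by 0.87 and 0.76. Levels of rcn3 in exposed larvae went from -0.02, 0.20, -0.06 and -0.37 to -1.49, -1.27, -1.02 and -1.66, lower in each experiment. The collagen chaperone serpinh1b fell by 0.73 under TCDD (SE 0.16, adjusted p = 0.0035), with -0.50 in the control, not called. In the cartilage and bone list 5 of 43 genes rose and 5 fell under TCDD, against 1 and 4 in the control. Among all named genes 5.51% rose and 7.16% fell under TCDD, and 3.89% and 7.34% in the control. The collagen col9a1b fell by 0.60 and by 0.80 in the control, and osteopontin, spp1, a secreted protein of bone, rose by 1.19 and by 1.11 in the control.

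Proteasome, chaperone and actin genes included called falls in both treatments. Of 32 proteasome genes, 5 fell under TCDD (median -0.18) and 24 in the control (median -0.31), against 7.16% and 7.34% of all named genes. The change was higher under TCDD for 30 of the 32, with a median difference of 0.16, a tally that was not tested. The proteasome medians in experiments 1 to 4 were -0.15, -0.38, -0.08 and -0.07 under TCDD. In the control they were -0.36, -0.29, -0.32 and -0.37, so the exposed list fell further in experiment 2. Of 72 chaperones, 7 fell and 3 rose under TCDD, and 17 fell and 1 rose in the control. Of 34 actin and calponin genes, 3 fell and 1 rose under TCDD, and 9 fell in the control. The TCDD counts of the chaperones and actin genes were close to the share of all named genes. The contrast of the changes was higher under TCDD at an unadjusted p below 0.01 for 1 of the proteasome genes, 9 of the chaperones and 3 of the actin genes, against 1.39% of all named genes, and for none at the adjusted threshold. Among them hspb1, a small heat shock protein, rose by 0.53 with a control change of 0.02 (unadjusted p = 0.0070). The lectin chaperone calr3a fell by 0.36 and 0.68 (unadjusted p = 0.0047), and tagln2, an actin binding protein, rose by 0.50 with -0.02 in the control (unadjusted p = 0.0041). The calponin cnn2 was higher on day 5 in 4 of 4 exposed pairs and lower in 4 of 4 control pairs, at 0.33 under TCDD (SE 0.12, adjusted p = 0.11), not called, and a fall by 0.41 in the control (SE 0.12, adjusted p = 0.043; difference of the changes 0.73, SE 0.17, unadjusted p = 2.5e-04, adjusted p = 0.36).

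Heart, muscle, eye and nerve lists gave few calls under TCDD, near or below the share of all named genes (5.51% rose and 7.16% fell). The Zf4 reference was dim for many of them. It was well above background on all 16 arrays of days 4 and 5 for 13 of 26 heart and 20 of 46 photoreceptor genes. The counts were 15 of 29 for lens, 35 of 62 for neuron and glia, 30 of 39 for fast muscle and 5389 of all 7042 named genes. Few calls there do not show that a list was unchanged. Of 26 heart genes, 1 fell under TCDD, the cardiac myosin light chain gene myl7, the largest fall among the named genes. Its levels were 5.07, 5.95, 7.74 and 6.15 on day 4 and 4.85, 4.97, 4.1 and 4.92 on day 5. In the control they were 4.61, 4.86, 4.91 and 5.41 on day 4 and 6.86, 4.91, 7.34 and 5.04 on day 5. The fall was largest in experiment 3. The change was -1.52 (SE 0.48, adjusted p = 0.049), against 1.09 in the control (difference of the changes -2.6, SE 0.68, unadjusted p = 6.7e-04, adjusted p = 0.51). That change was -1.13 (adjusted p = 0.20) without the TCDD day 5 array of experiment 3, -0.81 (adjusted p = 0.41) without experiment 3, -0.36 (adjusted p = 0.30) with normexp and loess, and -0.50 (adjusted p = 0.058) from the larval channel alone. The call was also lost without experiment 2 or 4 (adjusted p = 0.12 and 0.15), without the replicate block (adjusted p = 0.075) and with scan batch as a block (adjusted p = 0.21). Of 46 photoreceptor genes 0 rose and 1 fell, and of 29 lens genes 2 rose. They were crygm1, a gamma-crystallin, by 2.44 and by 2.6 in the control, and cryba1a, a beta-crystallin, by 0.96. Lens medians in the 4 exposed pairs ran from -0.16 to 1.35. In 62 neuron and glia genes 1 rose and 3 fell. Tubulin tubb5 fell by 0.98 (SE 0.13, adjusted p = 1.1e-05) and by 0.49 in the control, and the sodium pump subunit atp1b2a by 0.96, although its dimmer probe gave 0.29. Of 39 fast muscle genes 2 rose and 1 fell under TCDD, with a median of 0.06, and the change was above 0 for 24 and below 0 for 15. The gene that fell was tnnt3a, a troponin T, by 0.90 and by 1.11 in the control. Its call under TCDD was lost when any 1 experiment was left out (adjusted p 0.077 to 0.16). Neither the 9 endocrine pancreas nor the 22 vascular genes gave a call under TCDD. At an unadjusted p below 0.01 they gave 1 and 0, against 16.2% of all named genes. For them the reference was well above background on all 16 arrays for 2 of the 9 and 14 of the 22.

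Single genes of metabolism and protection also rose. The gene pdk2b, for a kinase that restrains pyruvate oxidation, rose by 2.25 (SE 0.64, adjusted p = 0.024), with 0.97 in the control (SE 0.64, adjusted p = 0.53), and its call was lost when any 1 experiment was left out (adjusted p 0.055 to 0.14). The catalytic subunit of glucose-6-phosphatase, g6pc1a.1, which releases glucose, rose by 0.70 with -0.13 in the control (difference of the changes 0.83, SE 0.25, unadjusted p = 0.0024, adjusted p = 0.61). Its dimmer probe gave 0.47 and 0.17, neither called. The glutathione peroxidase gpx1b rose by 1.32 and 0.77. A monocarboxylate transporter gene, slc16a9a, rose by 2.17 and a stanniocalcin gene, stc1l, by 2.16, with control changes of 0.77 and 0.81. Deiodinase dio1, which acts on thyroid hormone, rose by 0.87 and 1.69. Of 25 genes of p53 and apoptosis, 5 rose and 1 fell under TCDD, and 1 rose and 1 fell in the control. The shares of all named genes were 5.51% and 7.16% under TCDD, and 3.89% and 7.34% in the control. The survival factor mcl1b rose by 0.94 with a control change of -0.11 (unadjusted p of the difference = 0.0027), and sesn1, a stress-induced sestrin, by 0.99 with 0.48. Of 71 cytosolic ribosome genes 2 rose and 1 fell under TCDD, below those TCDD shares.

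Genes whose course differed most from the control were ranked by the contrast of the changes. The probe of zgc:76926, whose function is not annotated in the sources used here, was well above background on all 4 TCDD day 5 arrays and on none of the other 12 arrays of days 4 and 5. It was at least 3.98-fold higher on day 5 than on day 4 under TCDD, the dim group being set no lower than the lowest signal well above background, and its contrast had an adjusted p of 0.032. After f5, timp2b and junbb, the gene with the smallest p on the higher side was ube2d2l, a ubiquitin-conjugating enzyme. It changed by 0.45 under TCDD (SE 0.12, adjusted p = 0.013) and by -0.24 in the control (SE 0.12, adjusted p = 0.30; difference of the changes 0.69, SE 0.16, unadjusted p = 2.4e-04, adjusted p = 0.36). On the lower side none passed the adjusted threshold. The smallest p belonged to or42e3, not well above background on any array, to thap12b at -0.35 and 0.11 (difference of the changes -0.46, unadjusted p = 4.1e-04), to myl7, and to dync2li1, a light intermediate chain of ciliary dynein, at -0.33 and a called rise of 0.63 in the control (difference of the changes -0.96, unadjusted p = 9.7e-04). A further probe of dync2li1 gave -0.19 and 0.12, neither called (unadjusted p of the difference = 0.38).

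Whether exposed larvae moved along the normal course was read from the probes that changed most in control larvae. For each experiment the 500 probes with the largest control change in the other 3 experiments were taken, and their change in the held-out experiment was signed by that direction. The median signed change was 0.33 ± 0.07 (SD, n = 4) in the control and 0.40 ± 0.12 under TCDD. The exposed value was above the control value in experiments 1, 2 and 3 and below it in experiment 4. With normexp and loess the values were 0.56 ± 0.08 and 0.52 ± 0.16. With the probes at an unadjusted p below 0.01 in the other experiments in place of the 500, the values were 0.31 ± 0.01 and 0.24 ± 0.06, and the exposed value was the lower in each of the 4 experiments. In both treatments the median change was thus in the normal direction. Of the 500 probes, 60.8% to 64.0% moved that way in the control pairs and 60.8% to 67.8% in the TCDD pairs. With normexp and loess the shares were 86.4% to 98.2% and 85.4% to 94.4%. With the probes chosen by p they were 85.3% to 93.3% and 72.3% to 89.5%, and the exposed share was the lower in each of the 4 experiments. Which treatment moved further depended on how the probes were chosen and on the processing. Across the 7042 named genes the changes under TCDD and in the control were related at r = 0.40 (Spearman's rho 0.44), and across the 791 genes called in the control, chosen for their control change, at r = 0.88 (rho 0.81). These are descriptions over genes, which are not independent replicates.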

How the data were processed

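RNA of pooled whole larvae and of the Zf4 reference was hybridised by the authors to Agilent 22K zebrafish oligonucleotide arrays, and spots were read with Agilent Feature Extraction 8.1.1. The deposited log10 ratios of larval (Cy5) over reference (Cy3) signal were corrected for background and dye within each array by that software, with no scaling between arrays, and the series table held the same values (880425 of 880425 within 1e-06). The processed and raw intensities deposited in the scanner files, and the flags of the deposited files, entered the alternatives, the bounds and the choice of probes. The methods mention both dyes, but the labels of all arrays give Cy5 to the larvae, and that direction was used.

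Log ratios were put on the log2 scale, control spots (1080) were left out and outlier spots were set to missing. The 21495 probes were fitted with limma 3.58.1 in R 4.3.3, with 1 mean for each of 10 groups over 39 arrays and the experiment as a block. Contrasts were day 5 minus day 4 under TCDD, the same in the vehicle control, and the difference between them. Calls were made at a Benjamini-Hochberg adjusted p below 0.05 over all probes, by two-sided tests. The labels and design give replicates 1 to 4 as separate experiments, which is where the pairing comes from. Deviations of same-numbered TCDD day 4 and day 5 arrays correlated at 0.03, 0.29, 0.18 and 0.06. Arrays of unlike number gave -0.17 to 0.14, so the values of experiments 1 and 4 lay within that range.

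Symbols came from the files and RefSeq tables (GRCz12tu, used for names only): 10089 probes had one, for 7042 genes, and the brightest probe stood for a gene. Gene names on the array can be old. Further probes are given for some genes only, so a gene described by 1 probe need not agree across its probes. Named genes were the 10 largest called rises and falls with 1 sign in 4 of 4 experiments, the 4 smallest p of the difference in each direction, up to 4 called members per list and direction, defining members of lists, and genes named in the study. A further 23 list members and zgc:76926 were named after their values were seen. The members, the 34 lists and the tests were chosen with earlier results of these data known. Spots not above background on all arrays of a group gave only a bound. The fits were checked on artificial data with known changes. Noise was drawn independently and with equal spread for each array, unlike the real arrays, whose quality weights differed. Of 100 probes changed by 0.5 on the TCDD day 5 arrays, the TCDD contrast called 27% and the difference of the changes 14%. Of 100 changed by 1 they called 65% and 54%. Differences of such size can therefore be missed, and few called differences do not show equal changes. These shares do not carry over to the real fits. The adjusted threshold becomes looser as more probes are called, and the artificial data held only 200 changed probes. The real fits called 1709 probes under TCDD and 2 for the difference of the changes. The shares can thus be too low for the TCDD contrast and too high for the difference. The number of arrays limits the precision. No sequences were used here.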

Additional observations from a re-analysis of the deposited data

Results flagged for a closer look

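Of 166 genes taken by the naming rule or added from the lists, some of them not described above, that had values in all 4 exposed pairs and were well above background on at least 1 exposed array, 10 had 1 experiment whose change stood apart from the other 3, a gap that chance gives in about 1 of 20 such groups of 4. The count of 10 is near that share, so it is not a result about these genes, and their values are given as a description. Experiment 3 gave a change of 4.76 for cfb, where the 4 changes were 1.17, 1.03, 4.76 and 1.18. Experiment 2 gave 1.57 for timp2b, with changes of 2.96, 1.57, 2.97 and 3.12, so the rise was smallest there. The same experiment gave 1.9 for dio1, 0.53 for dusp6, -0.72 for g3bp1 and 0.60 for mcl1b. Experiment 4 gave -1.41 for tubb5, 0.072 for mpz, 0.77 for psme2 and -0.67 for atp5mc1. The gene g3bp1 encodes a stress granule protein, mpz a myelin protein, psme2 a proteasome activator and atp5mc1 a subunit of the ATP synthase, and all 4 were called under TCDD (-0.35, 0.56, 0.38 and -0.55).

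The change differed between the treatments, by limma's contrast of the changes, for f5 (1.3, adjusted p = 0.032) and for zgc:76926 (3.85, adjusted p = 0.032). The second value has no true size, since the probe was not well above background in 3 of the 4 groups. For 4 further genes each of the 4 exposed pairs moved one way and each of the 4 control pairs the other, and the contrast did not pass the adjusted threshold. They were timp2b (3.12, adjusted p = 0.084), cnn2 (0.73, adjusted p = 0.36), cldni, a claudin of the epidermis (0.66, adjusted p = 0.69), and dync2li1 (-0.96, adjusted p = 0.51). The share of all genes with such opposite signs was not counted, so their number is not a result. Moreover, timp2b and dync2li1 had been named for the smallest p of this difference.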

How the results depend on the processing

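Of 86 genes named with a call under TCDD, all kept their sign in each of 20 alternatives, and 1404 of the 1720 combinations of gene and alternative kept the call. Of the 316 that lost it, 86 came from a fit of the 8 TCDD arrays alone. That fit called 0 probes under TCDD and 0 in the control, with 2841 and 4229 at an unadjusted p below 0.05. Several alternatives changed only the error estimate or the threshold, so they left the signs all but fixed. The threshold of an unadjusted p below 0.01 could lose no call, since all 1709 called probes were below it. The 86 genes were also chosen for their call, so these tallies do not measure how well the results hold. Leaving out an experiment kept the calls of 43 of the 86 genes in all 4 fits. Without replicate 1, the calls of cldni, cryba1a, crygm1, cyba, dusp2, dut, fn1b, g3bp1, g6pc1a.1, jun, mcl1b, mpz, pcna, pdk2b, per1b, psme2, rpa2, serpinh1b, sesn1, slc16a9a, stc1l, tnnt3a, tyms and ube2d2l were lost (adjusted p 0.054 to 0.16). Without replicate 2 they were lost for bmal1b, calr3a, cfb, chia.1, chia.2, col9a1b, cry1b, crygm1, dio1, dusp2, dut, fosab, foxq1b, g3bp1, itih3b.1, mpz, myl7, nfkbiaa, pcna, pdk2b, per1b, psme2, serpinh1b, slc16a9a and tnnt3a (adjusted p 0.058 to 0.29). Without replicate 3 they were lost for apoeb, atp1b2a, cfb, cldni, col9a1b, cyba, foxq1b, g6pc1a.1, itih3b.1, jun, mpz, myl7, nfkbiaa, pcna, pdk2b, psme2, sesn1, spp1, tagln2, thap12b, tnnt3a and ube2d2l (adjusted p 0.061 to 0.41). Without replicate 4 they were lost for atp1b2a, bmal1b, cfb, chia.2, cldni, col9a1b, cyba, dusp2, dut, fn1b, foxq1b, g3bp1, hspb1, jun, mcl1b, myl7, nfkbiaa, pcna, pdk2b, per1b, psme2, rpa2, tagln2, tnnt3a and ube2d2l (adjusted p 0.052 to 0.33). Without the TCDD day 5 array of replicate 3, an alternative chosen after seeing the data, cfb, cldni, g3bp1 and myl7 lost theirs, and 1373 of the 1709 called probes were kept among 1716. Within scan batch 2, which held both days of experiments 1 and 2, 37 of the 86 lost theirs, mmp9 and mmp13a among them (adjusted p 0.050 to 0.51).

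The 1709 probes called under TCDD became 884 within scan batch 2, 895 with arrays scaled to equal spread, and 836 to 1147 without 1 experiment. The 1476 of the control became 786 within scan batch 2, 611 scaled, 793 from the larval channel alone, 2349 with array weights, and 677 to 911 without 1 experiment. Without the replicate block the counts were 1190 under TCDD and 1063 in the control. With normexp and loess 1112 probes rose and 712 fell under TCDD, against 731 and 978, and the larval channel alone gave 703 and 520, so the majority of falls depends on the processing. The 2 probes whose change differed between treatments became 0 without the replicate block, with 16 arrays, with scan batch as a block, when scaled, by ordinary analysis of variance and without the TCDD day 5 array of replicate 3, and 1 within scan batch 2 or with array weights. At an unadjusted p below 0.01, 281 probes differed by limma and 198 by analysis of variance. At an adjusted p below 0.05, the limma fits without 1 experiment gave 0 to 7. Where the count was 0, between 743 and 1425 probes had an unadjusted p below 0.05. The difference of the changes of f5 kept its sign throughout, between 1.0 and 1.48. The cause was not tested in any of these cases.

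The 15 AP-1 rises became 0 from the TCDD arrays alone and 9 within scan batch 2, with 13 to 14 without 1 experiment. The 24 falls of cell division became 0 from the TCDD arrays alone, 15 within scan batch 2, 11 scaled and 13 from the larval channel alone, with 14 to 28 when 1 experiment or the TCDD day 5 array of replicate 3 was left out. The 7 pancreatic rises became 0 from the TCDD arrays alone, 12 with normexp and 11 from the larval channel alone. The 14 falls of DNA replication became 7 without the replicate block, 0 from the TCDD arrays alone or scaled, 4 with 16 arrays, 1 within scan batch 2, 8 with normexp, 5 from the larval channel alone, 8 by analysis of variance, and 1 to 12 without 1 experiment. The control's signed median change of 0.33 became 0.56 with normexp, and the exposed 0.40 became 0.24 with the probes chosen by p.

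Changes that were not called turned sign in some alternatives. Scaling gave cyp1a -0.36, fabp10a -0.10, klf2b -0.0033, mpx -0.21 and lyz -0.43. For lyz the scan batch as a block gave -0.071, scan batch 2 -0.017, array weights -0.11 and the fit without the TCDD day 5 array of replicate 3 -0.08, with -0.10 to 0.29 without 1 experiment, whereas normexp gave a called 0.86 (adjusted p = 0.0071) and the larval channel alone a called 0.86 (adjusted p = 0.0099). When 1 experiment or that array was left out, mpx ranged from -0.043 to 0.42 and or42e3 from -0.34 to 0.71. The larval channel alone gave dync2li1 0.15, fosb -0.22 and or42e3 -0.088, and it called prss1 at 1.36 (adjusted p = 0.0016). Probes near background limit the low values: a log ratio is listed at 0 where the software found neither channel above background.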

Other observations

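Further gene groups gave counts near the shares of all named genes, or a few calls above or below them. These shares were 5.51% rising and 7.16% falling under TCDD, and 3.89% and 7.34% in the control. In lists this small a few calls can be a large share, as for the hatching gland. Under TCDD, 0 rose and 7 fell of 51 respiratory chain genes, with 0 and 5 in the control, and 1 rose and 4 fell of 24 genes of fatty acid oxidation, with 1 and 3. Among antioxidant genes 4 rose and 3 fell of 29, with 3 and 4 in the control. For antigen presentation the count was 3 rose and 0 fell of 22, with 1 and 0, and for glycolysis and gluconeogenesis 4 rose and 0 fell of 31, with 1 and 0. Erythroid genes gave 3 rose and 1 fell of 25 (2 and 2 in the control), sterol and fatty acid synthesis 2 rose and 1 fell of 23 (1 and 4), keratins and epidermis 4 rose and 2 fell of 54 (2 and 0), pigment cells 1 rose and 2 fell of 19 (1 and 1), pituitary and thyroid 1 rose and 0 fell of 19 (1 and 0), the hatching gland 2 rose and 0 fell of 6 (0 and 0) and calmodulin 0 rose and 1 fell of 6 (0 and 0).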
